A study of Mus musculus with 40 samples.

Results

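The midbrain patterning transcription factors examined here are En1, En2, Pax5, Pax7, Otx2, Lmx1a, Lmx1b, Foxa1, Foxa2 and Nkx6-1. They were taken by name as 10 of the 40213 gene symbols counted in every library, with earlier results of these data known. Messenger RNA was sequenced from male C57BL/6N mice aged 8 weeks in 40 libraries, of which 20 were made from midbrain and 20 from spinal cord. In each tissue, 5 groups had 4 replicates each. The Con group received saline and no MPTP, a toxin that damages dopaminergic neurons and serves as a model of Parkinson's disease (PD). All other groups received 4 intraperitoneal injections of MPTP at 20 mg/kg, given 2 h apart. MPTP-Veh mice then had saline injected at the acupoint GB34, as the Con mice did per the Methods. MPTP-SU mice had SU-Eohyeol pharmacopuncture (SUEHP), a herbal extract, injected there in 4 sessions beginning a week after MPTP. MPTP-SU+S mice also received 3 mg/kg of SR141716A, an antagonist of CB1 that is written SR141714A in the labels, and a figure legend of the study names GB35 for this group. MPTP-SU+T mice also received 5 mg/kg of the PPARγ inhibitor T0070907. Whole pieces of tissue were sequenced, so fewer cells of a type and less RNA per cell cannot be told apart. Neither the labels nor the Methods say that replicates came from separate mice, so p-values measure the spread between these samples, which may be technical.

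These genes encode DNA-binding proteins that divide the embryonic neural tube into regions. Otx2 sets the caudal limit of the midbrain, and En1, En2 and Pax5 are expressed on both sides of the boundary with the hindbrain, the isthmus, where FGF8 and WNT1 signals organise the tissue. Foxa1 and Foxa2 act in the floor plate, where Lmx1a and Lmx1b direct progenitors towards dopaminergic neurons, while Nkx6-1 marks ventral progenitors and Pax7 dorsal ones. Several remain expressed in adult neurons. En1, Lmx1a, Lmx1b, Foxa1 and Foxa2 are known in midbrain dopaminergic neurons, En1, En2 and Lmx1b in serotonergic neurons of the raphe, and Pax7 in the superior colliculus. In the spinal cord, En1 marks a class of inhibitory interneurons, Lmx1b excitatory neurons of the dorsal horn, and Nkx6-1 is retained in some motor neurons.

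Each midbrain library held between 11958200 and 16639823 counts and each spinal cord library between 14642808 and 16615378. The tissue labels were checked against marker genes. Slc6a3, the dopamine transporter gene, was at 17.7 to 128 CPM (the count relative to the TMM-scaled library total) in the midbrain libraries and at no more than 0.302 CPM in the spinal cord. Not all listed markers of dopaminergic neurons separated the tissues. Ret averaged 78.9 CPM in the midbrain and 105 CPM in the spinal cord, and Slc10a4 22.7 and 28.2 CPM. The others were higher in the midbrain, Aldh1a1 by little, at 242 and 184 CPM. The summed level of 8 Hox genes of the trunk was 503 to 621 CPM in the spinal cord, while in the midbrain it was 1.60 CPM in MPTP-Veh replicate 4 and no more than 0.156 CPM in the other 19 libraries. The midbrain library MPTP-Veh replicate 4 stood apart. Mitochondrially encoded genes made up 1.35% of its counts against 9.92% to 17.5% in the other midbrain libraries, and its Spearman's rho with the median midbrain profile was 0.888 against at least 0.987.

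The 10 genes fell into 3 patterns by tissue (plot of every library in both tissues). Otx2, Pax7, Lmx1a, Foxa1 and Foxa2 were found in the midbrain and were at or near 0 in the spinal cord. En1, En2 and Pax5 were expressed in both tissues and were higher in the midbrain. Lmx1b and Nkx6-1 were higher in the spinal cord. In a fit over all 40 libraries, all 10 genes differed between the tissues by more than 1.5-fold with an adjusted p-value under 0.05 (edgeR quasi-likelihood test), 8 higher and 2 lower in the midbrain. Of the 17426 genes tested, 22.0% were called by this rule, 9.80% as higher and 12.2% as lower. DESeq2 also called all 10, while its share over all genes is not given here. The Con libraries alone called all 10 in edgeR, where 16.4% of genes were called.

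**Figure D1:**
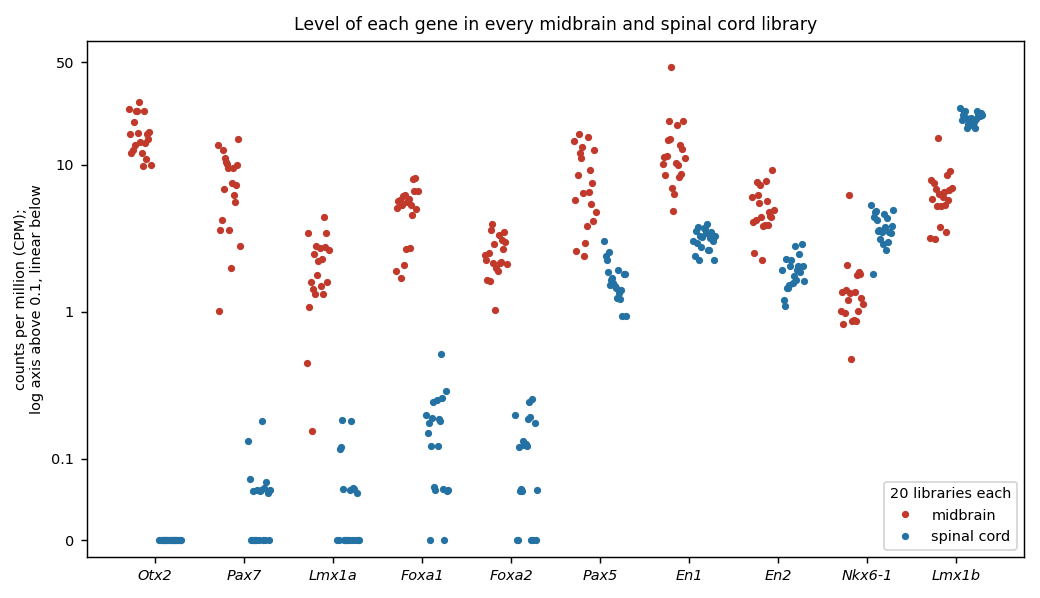
Level of the 10 genes in each of the 20 midbrain and 20 spinal cord libraries, in CPM on an axis that is logarithmic above 0.1 and linear below. Each point is a library. Otx2 was at 0 in every spinal cord library, while the spinal cord libraries of Lmx1b, at 17.8 to 24.6 CPM, lay above all midbrain libraries.

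Otx2 had 5020 counts over the midbrain libraries and 0 over the spinal cord libraries. Its mean of 16.6 CPM (SD 5.13, n = 20) was at least 1760-fold higher than the level of 3 counts over all spinal cord libraries, the most that a count of 0 allows, which is a limit of counting error only. Pax7 had 14 counts over the 20 spinal cord libraries and was at 0 in 9 of them. Its mean was 7.66 CPM (SD 4.02) in the midbrain and 0.0444 CPM in the spinal cord, a log2 fold change of 7.26 (SE 0.40). The 3 floor plate genes of this pattern were also sparse in the spinal cord. Lmx1a had 15 counts there, with 0 in 11 libraries, Foxa1 had 51, with 0 in 2 libraries, and Foxa2 had 34, with 0 in 5 libraries. Their log2 fold changes of midbrain over spinal cord were 5.42 (SE 0.38), 4.96 (SE 0.25) and 4.54 (SE 0.23).

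The isthmus genes differed by less. En1 averaged 13.5 CPM (SD 8.74) in the midbrain and 3.11 CPM (SD 0.499) in the spinal cord, a log2 fold change of 1.99 (SE 0.13). Pax5 averaged 8.30 and 1.70 CPM (log2 fold change 2.20, SE 0.18) and En2 5.17 and 1.89 CPM (1.42, SE 0.12). The libraries of the tissues did not overlap for En1 but did for En2 and Pax5. Lmx1b averaged 6.46 CPM in the midbrain and 20.9 CPM in the spinal cord (log2 fold change −1.71, SE 0.12), and Nkx6-1 1.49 and 3.79 CPM (−1.47, SE 0.16). The libraries of the tissues did not overlap for 6 of the 10 genes (En1, Pax7, Otx2, Lmx1b, Foxa1 and Foxa2), as for 9.08% of all genes tested.

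Levels of different genes were compared after division by the length of the longest annotated transcript. Per kilobase, the midbrain order began with Otx2 at 6.37 CPM and En1 at 5.13 CPM, followed at a distance by Foxa1 at 1.59 CPM and En2 at 1.46 CPM. Lmx1b (1.35), Pax7 (1.31), Foxa2 (1.18) and Pax5 (1.04) lay close together, and Lmx1a (0.618) and Nkx6-1 (0.474) were lowest, all in CPM per kilobase. In the spinal cord Lmx1b led at 4.38 CPM per kilobase, ahead of Nkx6-1 at 1.21 and En1 at 1.19. All of these are means over 20 libraries, and the ranges of neighbouring genes overlap in many places because levels varied widely between midbrain libraries. The coefficient of variation over the 20 midbrain libraries was highest for Nkx6-1 (79.6%) and En1 (65.5%) and lowest for Foxa2 (30.0%) and Otx2 (31.0%). Without MPTP-Veh replicate 4 it was 33.8% for Nkx6-1 and 37.1% for En1, and the order was then led by Pax5 (56.0%), Pax7 (54.3%) and Lmx1a (50.4%). The 20 spinal cord libraries of the same 5 groups gave 16.1% for En1, 25.4% for En2, 31.4% for Pax5, 23.2% for Nkx6-1 and 9.03% for Lmx1b.

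Across the midbrain groups, MPTP-Veh had the highest mean of 8 of the 10 genes, and the lowest mean of the remaining pair, Lmx1a and Foxa1 (plot of midbrain levels). With replicate 4 left out its mean was the highest for 7 genes, and for Lmx1b it turned from the highest of the 5 groups (7.64 CPM) to the lowest (5.07 CPM). MPTP-SU had the lowest mean of 6 genes, En1, En2, Pax5, Lmx1b, Foxa2 and Nkx6-1. For every gene, each group overlapped with its neighbours in the order of group means. The ratio of the highest to the lowest group mean was 3.38 for Pax5, 3.37 for En1, 3.05 for Nkx6-1 and 1.86 for En2. Without that library it was 3.38 for Pax5, 2.33 for En1, 1.75 for Nkx6-1 and 1.79 for En2. These group means mix libraries that differed widely, and MPTP-SU replicate 2 was the lowest of all 20 midbrain libraries for En1, En2, Pax5, Foxa2 and Nkx6-1.

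**Figure D2:**
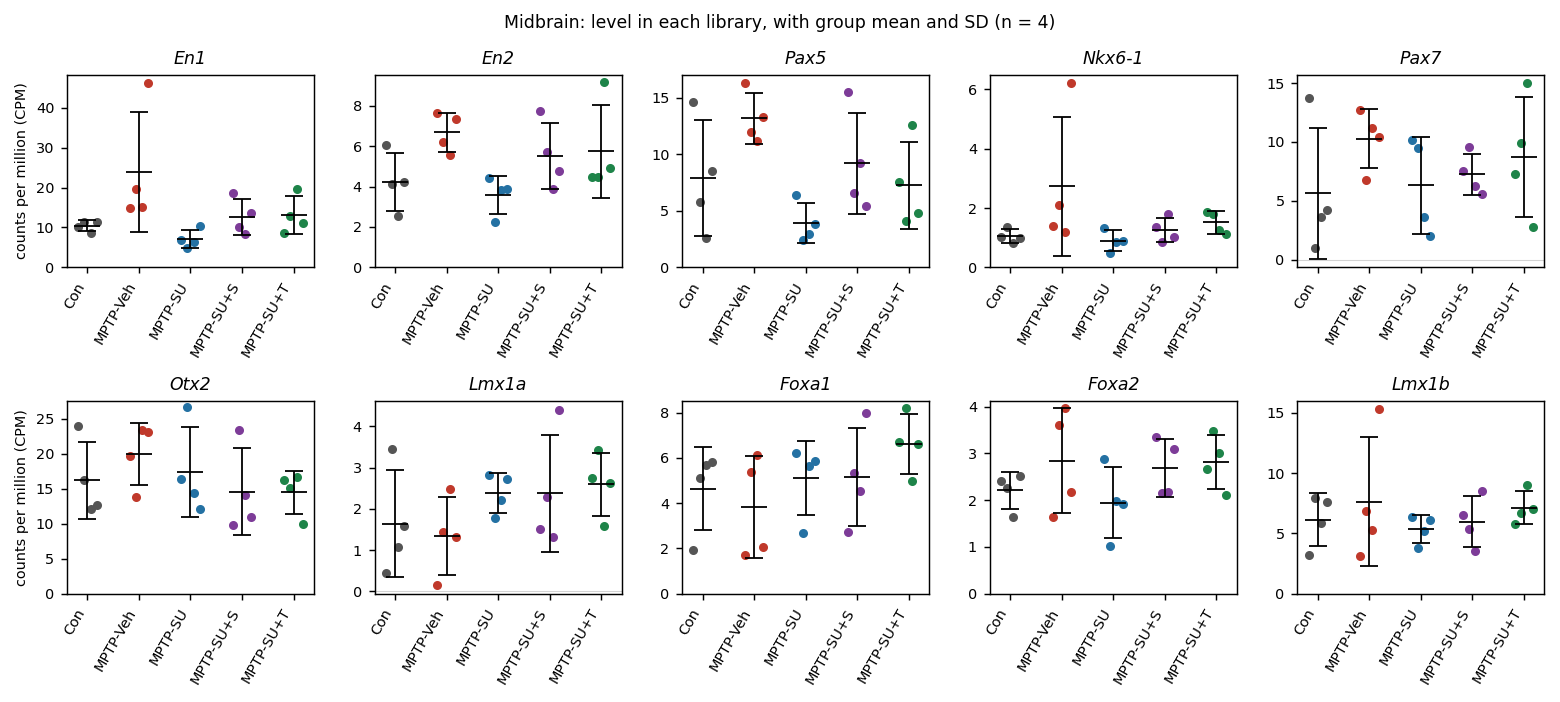
Level of each gene in the midbrain libraries, in CPM, by group. Points are libraries, and the bars show the group mean and SD (n = 4). MPTP-Veh replicate 4 is the highest point of En1 (46.3 CPM), Nkx6-1 (6.21 CPM) and Lmx1b (15.3 CPM), while MPTP-SU lies below MPTP-Veh without overlap for En1, En2 and Pax5.

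En1, which marks the isthmus and is kept in adult dopaminergic neurons, was at 10.1, 11.4, 8.59 and 11.5 CPM in Con replicates 1 to 4, at 14.9, 19.8, 15.1 and 46.3 CPM in MPTP-Veh, and at 6.98, 4.85, 6.39 and 10.3 CPM in MPTP-SU. With the antagonists it was at 18.6, 10.02, 8.26 and 13.6 CPM in MPTP-SU+S and at 8.69, 12.8, 19.7 and 11.2 CPM in MPTP-SU+T. Thus all MPTP-Veh libraries lay above all Con and all MPTP-SU libraries, and replicate 4 lay far above the other 3. Its paralogue En2 was at 6.05, 4.11, 2.53 and 4.22 CPM in Con, at 7.63, 6.22, 5.54 and 7.34 CPM in MPTP-Veh, and at 4.43, 2.25, 3.83 and 3.89 CPM in MPTP-SU. The MPTP-Veh libraries of En2 were evenly spread and did not overlap with MPTP-SU, while Con replicate 1 lay within the MPTP-Veh range. En2 was at 7.72, 5.72, 3.90 and 4.78 CPM in MPTP-SU+S and at 4.46, 4.45, 9.19 and 4.90 CPM in MPTP-SU+T.

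Pax5, a paired box factor that cooperates with Pax2 at the isthmus, varied widely in Con, at 14.6, 5.78, 2.59 and 8.50 CPM. It was at 16.3, 12.0, 11.2 and 13.3 CPM in MPTP-Veh, and at 6.44, 2.39, 2.96 and 3.82 CPM in MPTP-SU. Con spanned nearly the whole range of both other groups, and MPTP-Veh and MPTP-SU did not overlap. Pax5 was at 15.5, 6.58, 9.26 and 5.41 CPM in MPTP-SU+S and at 7.58, 4.13, 12.6 and 4.78 CPM in MPTP-SU+T. Nkx6-1, a homeobox factor of ventral progenitors, was low throughout, at 1.02, 1.37, 0.821 and 0.979 CPM in Con, at 1.40, 2.09, 1.20 and 6.21 CPM in MPTP-Veh, and at 1.34, 0.478, 0.871 and 0.880 CPM in MPTP-SU. Apart from MPTP-Veh replicate 4, the Nkx6-1 libraries of these groups lay between 0.478 and 2.09 CPM.

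Pax7, the dorsal factor, ranged from 1.01 to 13.7 CPM within Con alone and from 1.98 to 10.2 CPM within MPTP-SU. Otx2 was steadier, with group means of 14.5 to 20.0 CPM. Lmx1a was at 0.446, 3.46, 1.07 and 1.59 CPM in Con, at 0.156, 1.44, 2.47 and 1.32 CPM in MPTP-Veh, and at 2.82, 1.78, 2.21 and 2.71 CPM in MPTP-SU. Foxa1 was at 1.91, 5.13, 5.69 and 5.81 CPM in Con, at 1.71, 5.36, 6.15 and 2.07 CPM in MPTP-Veh, and at 6.24, 2.66, 5.63 and 5.87 CPM in MPTP-SU. Both genes were lowest in replicate 1 of Con and of MPTP-Veh, which were also at the low end of the summed level of 10 dopaminergic neuron markers, with 438 and 430 CPM against 563 to 664 CPM in the other Con and 703 to 816 CPM in the other MPTP-Veh libraries. Other libraries parted from this. MPTP-SU replicate 1 had the lowest sum of its group, at 437 CPM, and the group's highest Lmx1a and Foxa1 levels. MPTP-Veh replicate 4 had the highest sum of its group, at 816 CPM, with Foxa1 at 2.07 CPM. The part of dopaminergic tissue content in these levels was not tested. Foxa2 had group means of 1.95 to 2.84 CPM and Lmx1b of 5.36 to 7.64 CPM, where the MPTP-Veh libraries of Lmx1b ranged from 3.11 CPM in replicate 1 to 15.3 CPM in replicate 4.

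The effect of MPTP was examined by comparing MPTP-Veh with Con in the midbrain (plot of fitted differences). No member was called by edgeR, where 0.0180% of the 16629 genes tested were called. At an unadjusted p-value below 0.05 there were 3 members, En1, En2 and Nkx6-1, and 3945 genes in all. DESeq2 called 1 member, En1, among 432 genes. In edgeR the log2 fold change was 1.20 for En1 (SE 0.35, adjusted p = 0.130), 1.34 for Nkx6-1 (SE 0.44, adjusted p = 0.131), 0.66 for En2 (SE 0.29, adjusted p = 0.185) and 0.74 for Pax5 (SE 0.44, adjusted p = 0.299). Leaving out MPTP-Veh replicate 4, the value was 0.67 for En1 (adjusted p = 0.331) and 0.57 for Nkx6-1 (adjusted p = 0.527). En1 was the single member whose groups did not overlap (p = 0.0286 in an exact permutation test, whose smallest value for groups of 4 this is), as 12.4% of genes did not. The median log2 fold change was 0.52 over the 10 members and 0.00 over all genes tested. Markers of neighbouring tissues differed between the same libraries. All 5 forebrain markers tested (median −2.46) and all 5 choroid plexus markers tested (median −1.92) had negative log2 fold changes, and all 3 serotonergic neuron markers had positive ones (median 2.46), while none of these was called. Of 10 dopaminergic neuron markers, 9 had positive values and 1 a negative one (median 0.25). Positive and negative values numbered 1 and 5 for the hypothalamus, 3 and 3 for the thalamus, 2 and 2 for the cerebellum and 1 and 4 for ependymal cells. The pons and medulla marker and the pineal markers tested had negative values. None of these was called either. Summed forebrain levels were 30.0 to 149 CPM in Con and 6.40 to 31.7 CPM in MPTP-Veh, and choroid plexus sums were 19.4 to 1250 and 19.8 to 34.5 CPM. The part of tissue content in the values of the members was not tested.

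The effect of SUEHP was examined by comparing MPTP-SU with MPTP-Veh in the midbrain, a comparison that shares the MPTP-Veh libraries with the previous one. The isthmus genes En1, En2 and Pax5 and the ventral gene Nkx6-1 were lower in MPTP-SU and passed the test, while the remaining 6 did not pass. Thus 4 of 10 members were called, all lower, where 13.5% of all genes tested were called and 9.10% were called as lower. The groups did not overlap for En1, En2 and Pax5, as for 21.9% of all genes. Pax5 differed by −1.76 on the log2 scale (SE 0.46, adjusted p = 0.0197), En1 by −1.75 (SE 0.36, adjusted p = 0.00817), Nkx6-1 by −1.57 (SE 0.45, adjusted p = 0.0260) and En2 by −0.89 (SE 0.29, adjusted p = 0.0419). Nkx6-1 overlapped between the groups, and its exact permutation p was 0.0571 against 0.0286 for the 3 isthmus genes. DESeq2 called the same number of members, 4. The share of all genes that it called is not given here, so this count cannot be set against one.

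These calls differed in how far they rested on single libraries. Without MPTP-Veh replicate 4, En1 and Pax5 remained called and the difference of En1 was −1.22, while Nkx6-1 fell by 0.80 on the log2 scale with an adjusted p of 0.128 and En2 had an adjusted p of 0.0756. Without MPTP-SU replicate 2 or replicate 3, En1 alone remained called, and fitted on the 8 libraries of the comparison alone, edgeR called none of the members and 0 of 15764 genes, with adjusted p-values of 0.216 to 0.223 for these 4. Over all 14 alternatives the log2 fold change stayed between −2.11 and −1.58 for Pax5, −1.97 and −1.22 for En1, and −0.996 and −0.715 for En2. For Nkx6-1 it ranged from −1.83 to −0.804.

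The 4 floor plate genes and the pair of Pax7 and Otx2 did not pass in this comparison. Lmx1a (log2 fold change 0.79, SE 0.57) and Foxa1 (0.39, SE 0.41) had positive values, and Foxa2 (−0.56, SE 0.31), Lmx1b (−0.50, SE 0.38), Pax7 (−0.70, SE 0.59) and Otx2 (−0.20, SE 0.30) had negative ones, with adjusted p-values from 0.1803 for Foxa2 to 0.631 for Otx2. The value of Lmx1b became 0.070 without MPTP-Veh replicate 4. The median over the 10 members was −0.63, against 0.00 over all genes.

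**Figure D3:**
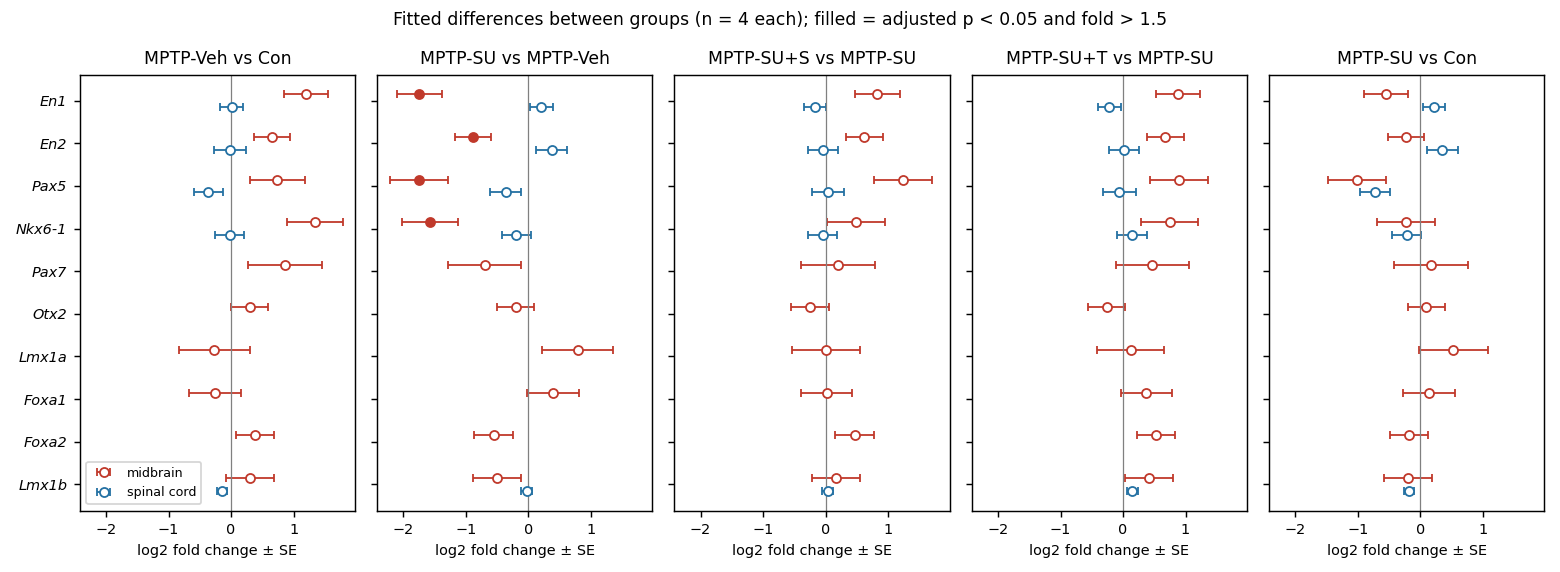
Log2 fold change with its SE for each gene in 5 comparisons, midbrain in red and spinal cord in blue, from edgeR fits with 4 libraries a group. Filled circles mark an adjusted p below 0.05 with a fold change above 1.5, which was met by En1, En2, Pax5 and Nkx6-1 in the midbrain comparison of MPTP-SU with MPTP-Veh and by no gene elsewhere. Genes with no spinal cord point had too few counts there to be tested.

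Whether the antagonists changed these levels under SUEHP was examined by comparing MPTP-SU+S and MPTP-SU+T with MPTP-SU, which share the MPTP-SU libraries with each other and with the comparison above. No member was called in either comparison by edgeR, as was the case for 0% of all genes tested in each, and DESeq2 called no member in either. At an unadjusted p-value below 0.05 there were 3 members with the CB1 antagonist (En1, En2 and Pax5, among 274 genes) and 2 with the PPARγ inhibitor (En1 and En2, among 283 genes). The log2 fold changes with the CB1 antagonist were 0.83 for En1 (SE 0.36), 0.62 for En2 (SE 0.29) and 1.23 for Pax5 (SE 0.46). With the PPARγ inhibitor they were 0.88 for En1 (SE 0.36), 0.68 for En2 (SE 0.29), 0.90 for Pax5 (SE 0.46) and 0.75 for Nkx6-1 (SE 0.46). All of these had adjusted p-values of 1 over the 16629 genes tested. En2 did not overlap between MPTP-SU+T and MPTP-SU, as for 1.96% of all genes. Its lowest MPTP-SU+T library was at 4.45 CPM and its highest MPTP-SU library at 4.43 CPM. Of the 10 members, 9 had positive values in each of these comparisons, with medians of 0.33 and 0.50 against 0.00 and 0.01 over all genes.

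Set directly against Con, MPTP-SU had no member called by edgeR, where 0.764% of genes were called, nor by DESeq2, which called 422 genes in all. Pax5 was the single member at an unadjusted p below 0.05, of 2673 such genes, at −1.01 on the log2 scale (SE 0.46, adjusted p = 0.286). En1 was at −0.55 (SE 0.36), while En2 and Nkx6-1 were both at −0.23. No member's libraries were without overlap between these groups, which 19.6% of all genes were.

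In the spinal cord, none of the group comparisons called a member. Otx2, Pax7, Lmx1a, Foxa1 and Foxa2 did not pass the filter on low counts, and the other 5 were tested. Over the 5 comparisons, edgeR called 0% of the 16682 genes tested, except 0.0240% for MPTP-SU+T against MPTP-SU, and DESeq2 called no member in any. At an unadjusted p below 0.05 there was no member in 4 of the 5 comparisons. In MPTP-SU against Con there were 2, Pax5 and Lmx1b, among 1530 of the 16682 genes tested. Pax5, which is expressed in inhibitory neurons of the dorsal horn, was at 3.06, 2.41, 2.26 and 1.86 CPM in Con and at 1.56, 1.504, 1.46 and 1.24 CPM in MPTP-SU. All MPTP-SU libraries lay below all Con libraries, as for 3.51% of genes in either direction, and the groups differed by −0.73 on the log2 scale (SE 0.24, adjusted p = 0.470). MPTP-Veh, at 2.56, 1.51, 1.64 and 1.71 CPM, overlapped both groups. Lmx1b differed by −0.18 between MPTP-SU and Con (SE 0.08, adjusted p = 0.534), with Con at 20.2 to 24.6 CPM and MPTP-SU at 18.7 to 21.0 CPM. In MPTP-SU+T, Lmx1b lay above MPTP-SU without overlap, as 8.04% of genes were apart in either direction, and differed by 0.15 on the log2 scale (SE 0.08, adjusted p = 0.473). En1 kept to 2.24 to 3.94 CPM over all 20 spinal cord libraries, and Nkx6-1 to 1.81 to 5.31 CPM.

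The difference between the tissues in the SUEHP comparison was tested directly as an interaction. En1 and En2 passed, with values of −1.95 (SE 0.42, adjusted p = 0.00363) and −1.25 (SE 0.40, adjusted p = 0.0298) for the midbrain difference minus the spinal cord difference on the log2 scale. In the spinal cord, their own differences were 0.21 (SE 0.18) for En1 and 0.37 (SE 0.25) for En2. Pax5 at −1.39 (adjusted p = 0.0832) and Nkx6-1 at −1.35 (adjusted p = 0.0595) did not pass. Hence 2 of 10 members were called, both lower, where 12.1% of all genes were called and 8.14% as lower. DESeq2 called 3, En1, En2 and Nkx6-1. Its share over all genes is not given here, so this count cannot be read as particular to the members. En1 alone was called when any of 6 libraries was left out, among them midbrain MPTP-Veh replicate 4.

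The members varied together in 2 sets over the midbrain libraries. Of the 45 pairs of members, 7 were correlated at an adjusted p below 0.05 (Spearman's rho of log2 CPM over 20 libraries, 100000 permutations, adjusted over the 45 pairs), all of them positively. The share of pairs so correlated among all tested genes is not given here, so the count cannot be read as particular to the members. Genes outside the list reached higher values than any pair of members, such as Otulin with En1 (rho = 0.892). The closest pair was En2 and Pax5, with a Pearson's r of 0.861 and a rho of 0.842 (adjusted permutation p = 0.00045). En1 and En2 followed, with r = 0.763 and rho = 0.776 (adjusted permutation p = 0.0015), and En1 and Pax5 had r = 0.662 and rho = 0.635 (adjusted permutation p = 0.0238). The isthmus genes thus formed 1 set, to which Pax7 was linked through En2 (r = 0.468, rho = 0.633, adjusted permutation p = 0.0238) and Pax5 (r = 0.504, rho = 0.615, adjusted permutation p = 0.0302), and Otx2 through Pax7 (r = 0.546, rho = 0.689, adjusted permutation p = 0.0142). Lmx1a and Foxa1 formed the other set, with r = 0.800 and rho = 0.767 (adjusted permutation p = 0.00113). Pax5 stood against both of them, with rho of −0.53 for Lmx1a and −0.52 for Foxa1, neither of which passed the adjustment (adjusted permutation p = 0.0642 for both). By Pearson's r, 4 of these 7 pairs passed the same adjustment, En2 with Pax5 and Lmx1a with Foxa1 (adjusted permutation p = 0.000225 for both), En1 with En2 (0.0015) and En1 with Pax5 (0.00828), while Pax7 with Otx2 (0.0724), Pax5 with Pax7 (0.0784) and En2 with Pax7 (0.0916) did not.

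These relations were recomputed after each library was centred on its group mean, and with the 2 libraries farthest from the median of the first-named gene left out. Within groups, r was 0.821 for En2 with Pax5, 0.768 for Lmx1a with Foxa1, 0.611 for Pax7 with Otx2, 0.587 for En1 with En2, 0.437 for Pax5 with Pax7, 0.318 for En1 with Pax5 and 0.282 for En2 with Pax7. With the farthest libraries left out, the 7 pairs had r from 0.579 for En2 with Pax7 to 0.840 for En2 with Pax5. A further 2 pairs passed by r alone and had a lower r without those libraries. For En1 with Nkx6-1, r was 0.754 over all 20 libraries and 0.317 without those farthest, and for En1 with Lmx1b it was 0.634 and 0.302. Centred on group means, with all libraries kept, r was 0.556 for En1 with Nkx6-1 and 0.784 for En1 with Lmx1b. Dissection, RNA quality and depth are shared by all genes of a library, and their part in these relations was not tested.

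**Figure D4:**
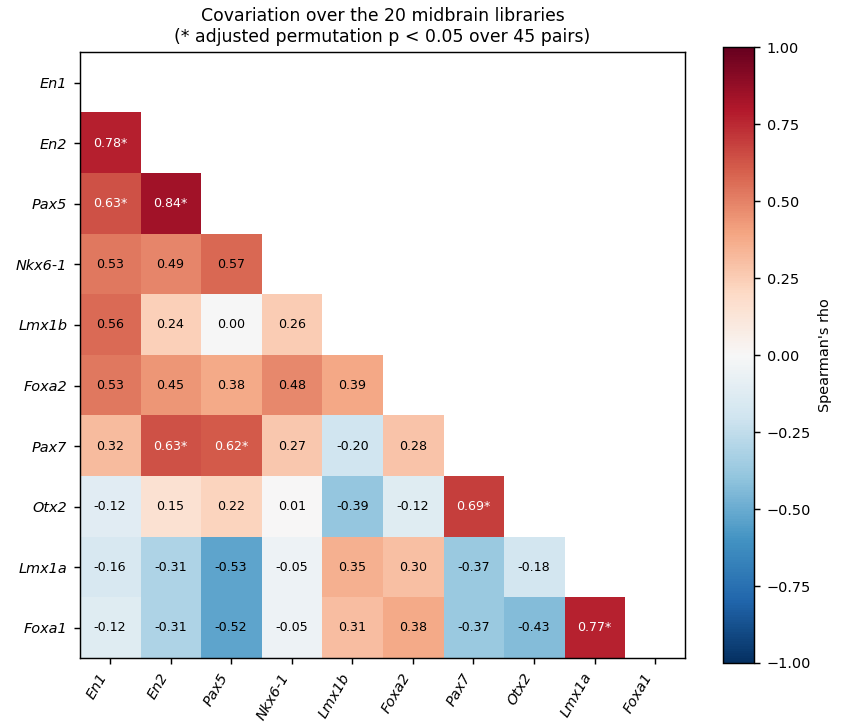
Spearman's rho of log2 CPM for each pair of members over the 20 midbrain libraries, from blue (negative) to red (positive). Asterisks mark the 7 pairs with an adjusted permutation p below 0.05, which hold En1, En2, Pax5, Pax7 and Otx2 in a chain and Lmx1a with Foxa1 apart from them.

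The sequences upstream of En1 and Pax5 from the first set, and of Lmx1a and Foxa1 from the other, are shown as a description. They were taken from RefSeq (GRCm38.p6), in which 9 of the 10 members, all but En2, had 14 windows of 250 bases before a gene start. Each is printed 5′ to 3′ on the strand of the gene and trimmed to the part outside annotated exons, for En1 at chr1:120602237-120602417 (plus strand), Pax5 at chr4:44710695-44710944 (minus), Lmx1a at chr1:167689308-167689556 (plus) and Foxa1 at chr12:57546122-57546361 (minus). Capitals mark matches on either strand to 6 short motifs, the CCAAT box, the GC box GGGCGG, the TATA box TATAAA, the E-box CACGTG, the homeodomain core TAATTA and the forkhead motif TGTTTAC. The E-box was added to the search after the sequences were seen.
En1: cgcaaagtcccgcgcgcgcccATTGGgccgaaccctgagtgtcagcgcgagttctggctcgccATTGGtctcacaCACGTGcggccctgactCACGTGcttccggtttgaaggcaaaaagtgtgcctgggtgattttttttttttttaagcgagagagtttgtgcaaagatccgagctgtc
Pax5: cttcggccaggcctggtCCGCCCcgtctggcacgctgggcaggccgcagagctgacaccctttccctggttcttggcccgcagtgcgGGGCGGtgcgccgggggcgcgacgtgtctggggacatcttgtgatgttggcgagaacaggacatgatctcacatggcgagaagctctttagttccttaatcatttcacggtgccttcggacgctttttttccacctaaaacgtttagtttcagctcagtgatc
Lmx1a: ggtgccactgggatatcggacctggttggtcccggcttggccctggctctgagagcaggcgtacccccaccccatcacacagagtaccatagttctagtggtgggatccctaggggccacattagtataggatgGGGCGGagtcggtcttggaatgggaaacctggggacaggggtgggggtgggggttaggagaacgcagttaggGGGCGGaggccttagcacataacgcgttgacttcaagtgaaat
Foxa1: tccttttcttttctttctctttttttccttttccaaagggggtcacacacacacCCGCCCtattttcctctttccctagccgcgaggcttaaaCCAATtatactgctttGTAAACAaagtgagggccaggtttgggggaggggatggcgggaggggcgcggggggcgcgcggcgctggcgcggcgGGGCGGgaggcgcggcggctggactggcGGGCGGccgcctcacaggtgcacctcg

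The En1 window held the CCAAT box at 2 places and the E-box at 2, and the Pax5 window the GC box at 2. The Lmx1a window held the GC box at 2 places, and the Foxa1 window at 3, beside 1 CCAAT box and 1 forkhead motif. No motif overlapped with another in these windows. Over all 32851 RefSeq windows of this length, CCAAT was found in 33.8%, GGGCGG in 32.7%, TATAAA in 12.4%, CACGTG in 6.02%, TAATTA in 4.84% and TGTTTAC in 3.17%. No motif was shared by En1 and Pax5, whereas Lmx1a and Foxa1 shared the GC box, which is common among all windows. This holds for these pairs and not for the whole first set. In windows not printed, Pax7 held the GC box at 1 place, and Otx2 held the CCAAT box in 1 window. Other Otx2 windows held TAATTA, at 1 place beside 1 TATAAA, and at 3 places. The median GC content was 57.4% over the windows of the members and 52.4% over all windows.

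The tested genes whose midbrain profile was most like that of each member were found by Spearman's rho of log2 CPM over the 20 libraries, given as a description. For En1 they were Otulin (rho = 0.892), Larp1 (0.884) and Stub1 (0.871), and for En2 Dao (0.857), Fev (0.856) and Mapk12 (0.854). For Pax5 they were Myo16 (0.905), Nefl (0.899) and Pax2 (0.896), the last being the paired box gene that acts with it at the isthmus. Pax7 was closest to Cdk2ap1 (0.895), Pou4f2 (0.857) and Npnt (0.847), and Otx2 to F930015N05Rik (0.833), Ipo9 (0.833) and Gm13601 (0.812). Among the floor plate genes, Lmx1a was closest to Sulf1 (0.854), Nkain2 (0.847) and Spata6l (0.820), Foxa1 to Sfta3-ps (0.799), Cd44 (0.785) and Lmx1a (0.767), and Foxa2 to C1ql1 (0.773), Pde1c (0.723) and Lcp1 (0.716). Lmx1b was closest to Ddc (0.812), which encodes the enzyme that makes dopamine and serotonin from their precursors, Slc39a4 (0.809) and Syt17 (0.794). Nkx6-1 was closest to Gm33940 (0.774), Tph2 (0.747), the gene for the enzyme that limits serotonin synthesis in neurons, and Ldoc1 (0.734). Without MPTP-Veh replicate 4, rho was 0.847 for En2 with Fev, 0.781 for Lmx1b with Ddc and 0.705 for Nkx6-1 with Tph2. All genes in a library share its depth and tissue content.

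Other genes of the patterning network were described from a list of 44 signals and transcription factors of the isthmus, floor plate and midbrain subdivisions, of which 40 were tested in the midbrain. The organiser signals Fgf8 and Wnt1 were among those with too few counts to be tested. Between MPTP-SU and MPTP-Veh, 5 of the 40 were called as lower and 1 as higher, with a median log2 fold change of −0.19, where 9.10% of all genes were called as lower and 13.5% in either direction. In the other 4 midbrain comparisons none was called. Without MPTP-Veh replicate 4, 2 of the 40 were called, Gata3 and Pax8, both lower, among 572 genes in all. Among the 5 called as lower over all libraries were Gata3 and Gata2, which specify GABAergic neurons of the midbrain. Gata3 averaged 59.1 CPM in MPTP-Veh against 16.4 CPM with SUEHP (log2 fold change −1.85, SE 0.44, adjusted p = 0.0138). Its MPTP-Veh level was 133 CPM in replicate 4 and averaged 34.5 CPM in the other 3, without which library the difference was −1.07 (adjusted p = 0.0284) and still called. Gata2 fell by 0.85 on the log2 scale (SE 0.20, adjusted p = 0.0121), and by 0.57 without that library, where it no longer exceeded 1.5-fold. Lhx5 (−1.38, SE 0.39, adjusted p = 0.0254) and Irx3 (−0.99, SE 0.29, adjusted p = 0.0267) also passed. Isl1, a LIM homeobox gene of motor neurons, was higher in MPTP-SU, at 2.96 against 0.439 CPM (log2 fold change 2.67, SE 0.84, adjusted p = 0.0354). The calls of Lhx5 (−0.63, adjusted p = 0.112), Irx3 (−0.61, adjusted p = 0.0935) and Isl1 (2.40, adjusted p = 0.0761) were lost without MPTP-Veh replicate 4, and with another library of the comparison left out each of these genes lost its call in 2 to 4 of 7 cases. The paired box partners of Pax5 did not pass, with Pax2 at −3.17 (SE 1.11, adjusted p = 0.0507) and Pax8 at −1.33 (SE 0.48, adjusted p = 0.0552).

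Both of these partners were genes of the spinal cord in these data. Pax2 averaged 0.906 CPM in the midbrain and 31.4 CPM in the spinal cord (log2 fold change −5.41, SE 0.23), and Pax8 1.28 and 13.8 CPM (−3.49, SE 0.12), the reverse of Pax5. Of the 40 network genes tested over both tissues, 17 were higher and 6 lower in the midbrain, where 9.80% and 12.2% of all genes were. Otx1, the paralogue of Otx2, was at 6.93 CPM in the midbrain and 0.00592 CPM in the spinal cord, with a log2 fold change of 9.14 (SE 0.23). Gbx2, which opposes Otx2 at the isthmus of the embryo, was also higher in the midbrain, at 9.61 against 2.28 CPM (log2 fold change 2.00, SE 0.19). Of genes known in dopaminergic neurons, Pitx3 (log2 fold change 4.34, SE 0.35) and Nr4a2 (1.87, SE 0.13) were higher in the midbrain.

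The adult midbrain borders on tissues that express some of these genes, so marker lists of neighbouring tissues and cell types were read in the same libraries (plot of marker lists). The summed level of 3 serotonergic neuron markers (Tph2, Slc6a4 and Fev) was at 31.4, 13.5, 0.821 and 15.1 CPM in Con replicates 1 to 4, at 71.4, 77.4, 22.4 and 144 CPM in MPTP-Veh, and at 56.1, 7.24, 7.49 and 14.7 CPM in MPTP-SU. It was at 60.6, 13.5, 20.6 and 64.3 CPM in MPTP-SU+S and at 25.1, 40.7, 102 and 16.3 CPM in MPTP-SU+T. The highest level was in MPTP-Veh replicate 4, where En1 and Nkx6-1 were also highest, and in MPTP-SU+T it was in replicate 3, which was also highest for En1, En2, Pax5 and Pax7 in that group. MPTP-SU replicate 1 had the highest sum of its group and the group's highest En2, Pax5 and Nkx6-1 levels, though not its highest En1 level. The sum of that library, at 56.1 CPM, lay within the MPTP-Veh range of 22.4 to 144 CPM, and those of MPTP-SU replicates 2 to 4 lay below it. En1, En2 and Pax5 lay below their MPTP-Veh ranges in all MPTP-SU libraries. In MPTP-SU+S, replicate 4 had the highest sum of its group and the lowest Pax5 level. Replicate 1 of that group, with a sum of 60.6 CPM, had its highest En1, En2 and Pax5 levels. In Con, replicate 3 had the lowest sum and the lowest En1, En2 and Pax5 levels. Con replicate 1 had the highest sum and the highest En2 and Pax5 levels, though not the highest En1 level. Between MPTP-SU and MPTP-Veh, 1 of the 3 markers was called, Fev at −2.78 (SE 0.84, adjusted p = 0.0312), which was −2.09 without MPTP-Veh replicate 4 (adjusted p = 0.0931). The part of serotonergic tissue content in the differences of the members was not tested.

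The summed level of 6 thalamus markers moved the other way. It was at 119, 367, 143 and 103 CPM in MPTP-Veh, and at 160, 661, 923 and 751 CPM in MPTP-SU, and all 6 had positive log2 fold changes, with a median of 1.47, while 0 of 6 were called by edgeR. Of 10 dopaminergic neuron markers, the sums ranged from 430 to 816 CPM in MPTP-Veh and from 437 to 746 CPM in MPTP-SU, and 1 was called, Drd2 at −0.70 (SE 0.15, adjusted p = 0.00974). Of 10 hypothalamus markers, 6 were tested and 1 was called, Pomc, a neuropeptide precursor gene of the arcuate nucleus, with means of 0.955 CPM (SD 0.324) in MPTP-SU and 167 CPM (SD 326) in MPTP-Veh. The size of this difference was set by MPTP-Veh replicate 1, at 656 CPM against 2.59 to 4.12 CPM in the other 3. Its log2 fold change was −7.45 with that library and −1.89 without it, still called (adjusted p = 0.0374). The hypothalamus sums were 669 CPM in that library, 14.2 to 16.9 CPM in the other MPTP-Veh libraries and 13.4 to 42.3 CPM in MPTP-SU. In MPTP-SU against MPTP-Veh, 0 markers were called of the cerebellum (4 tested), the pons and medulla (1 tested), the forebrain (5 tested), the choroid plexus (5 tested), ependymal cells (5 tested) and the pineal gland (2 tested). Sums in MPTP-Veh and MPTP-SU were 16.7 to 69.9 and 13.9 to 18.4 CPM for the cerebellum and 5.06 to 17.7 and 0.697 to 7.85 CPM for the pons and medulla. Forebrain markers were at 6.40 to 31.7 and 6.16 to 45.7 CPM, choroid plexus markers at 19.8 to 34.5 and 31.3 to 40.5 CPM, ependymal markers at 11.9 to 25.4 and 15.6 to 20.0 CPM, and pineal markers at 0.241 to 1.04 and 0.604 to 3.55 CPM. The pineal marker Gngt1 and the trunk gene Hoxd10 were at 0 in all midbrain libraries. The part of any of these in the differences of the members was not tested.

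**Figure D5:**
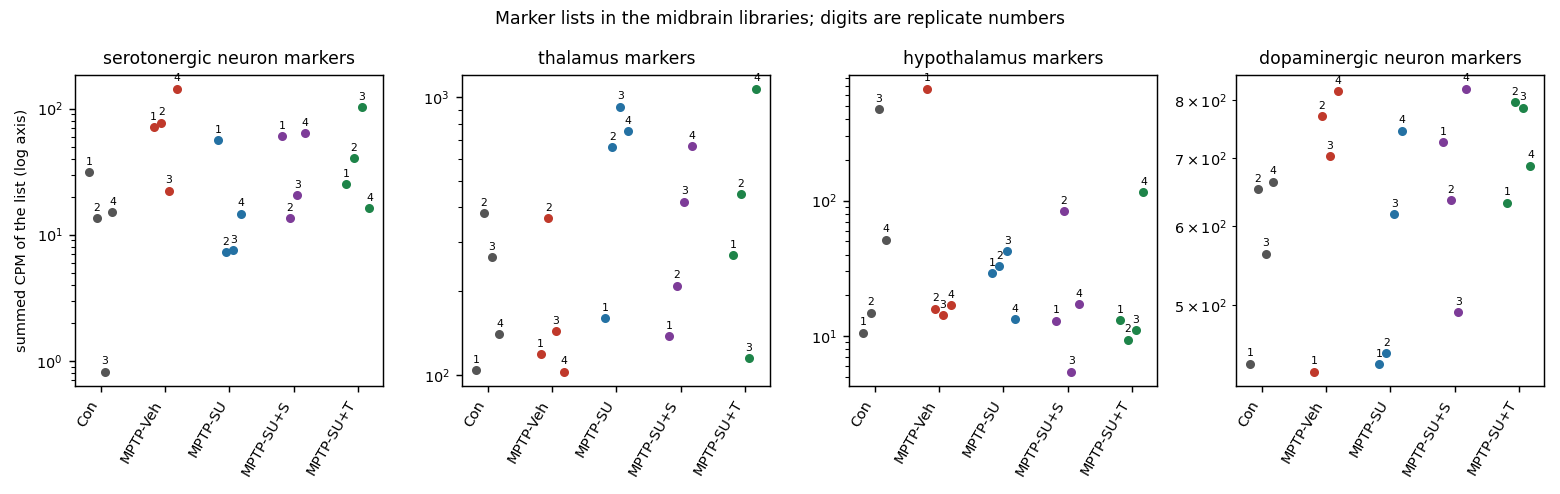
Summed CPM of the markers of serotonergic neurons, thalamus, hypothalamus and dopaminergic neurons in each midbrain library, on log axes, with replicate numbers beside the points. Serotonergic sums reach 144 CPM in MPTP-Veh replicate 4, and 3 of the 4 thalamus sums of MPTP-SU, at 661 to 923 CPM, lie above all those of MPTP-Veh.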

How the data were processed

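Per the Methods, polyadenylated RNA was made into libraries with the CORALL RNA-Seq V2 kit and sequenced in pairs on a NovaSeq, and fastp was used by the authors for trimming, STAR for alignment and Salmon for quantification. The submitters' processing notes also name GATK and the build GRCm39, and tool versions, the annotation and the strand setting are not given in the sources used here. The labels name TaKaRa RNAiso Plus for RNA extraction and the Methods an iNtRON kit. The deposited values are estimated counts per gene symbol, already whole numbers and not normalized, in 1 table per library.

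Counts were analysed in R 4.3.3. In each tissue, genes were filtered with filterByExpr of edgeR 4.0.16, scaled by TMM and fitted in 1 quasi-likelihood model over 20 libraries with a term for group. Tissue differences and the interaction came from 1 fit over 40 libraries, whose TMM factors also scale the CPM values given for tissues. Genes were called at a Benjamini-Hochberg adjusted p below 0.05, over all genes tested, with a fold change above 1.5. Correlations used log2 CPM, with 2 as the prior count. Single members were also tested with a two-sided exact permutation test of mean CPM.

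The 10 members, the patterning network list, the marker lists and the tests were chosen with earlier results of these data known. All members are named, as are called network genes apart from 1 that is counted but not reported here, or the 3 with the smallest p-values otherwise. Of the network genes called between the tissues, those related to a member are named. For each member averaging at least 1 CPM, the 3 genes with the highest rho are named. Transcript lengths and overlapping genes came from GENCODE M21 (GRCm38) by symbol. Pax5 overlaps 3 genes on the opposite strand, and En2, Otx2 and Lmx1b overlap 1 each, so their reads cannot be told apart without strand. Alternatives were DESeq2 1.42.0, RLE factors, library size alone, no low-count filter, the 8 libraries of a comparison alone, a replicate term, the Con libraries alone for the tissue difference, and each library left out. The scripts were tested on simulated counts.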

Additional observations from a re-analysis of the deposited data

Results flagged for a closer look

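Within groups of 4 libraries, 4 of the 75 groups tested had a library whose gap to the nearest other exceeded Dixon's critical share of the group's range. Chance gives such a library in about 1 in 20 groups. En1 in midbrain MPTP-Veh was at 46.3 CPM in replicate 4, against 14.9 to 19.8 CPM in the other replicates. En2 in midbrain MPTP-SU+T was at 9.19 CPM in replicate 3, against 4.45 to 4.90 CPM. En2 in spinal cord MPTP-Veh was at 2.04 CPM in replicate 4, against 1.45 to 1.52 CPM. Foxa1 in midbrain MPTP-SU was at 2.66 CPM in replicate 2, against 5.63 to 6.24 CPM.

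The difference between MPTP-SU and MPTP-Veh itself differed between the tissues for En1, by −1.95 on the log2 scale, and for En2, by −1.25, in the interaction test over all 40 libraries.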

How the results depend on the processing

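The tissue difference was called for 10 of 10 members under all 15 alternatives, and no member was called in any of the 14 or 15 alternatives for each spinal cord comparison, the antagonist comparisons and MPTP-SU against Con. In midbrain MPTP-Veh against Con, DESeq2 called 1 member (En1, among 432 genes where edgeR called 3), and the count was 0 to 2 with a library left out, 2 (En1 and Nkx6-1) without MPTP-Veh replicate 3. In midbrain MPTP-SU against MPTP-Veh, 0 members were called with the 8 libraries of the comparison alone, a fit with fewer libraries behind the spread, and 1 to 4 with a library left out. That range was 2 without MPTP-Veh replicate 4 (572 genes in all) and 1 without MPTP-SU replicate 2 (618 genes) or replicate 3 (1073 genes), and the cause was not tested. En2 lost its call without any of 6 of the 8 libraries (MPTP-Veh replicates 1 and 4, all of MPTP-SU) and with no low-count filter, where its adjusted p was 0.0613. The interaction was called for 1 to 4 members with a library left out, 4 without midbrain MPTP-SU replicate 1, and 1 (En1) without replicate 4 of MPTP-Veh or 2 of MPTP-SU in the midbrain, or without replicates 2 or 3 of MPTP-Veh and 1 or 4 of MPTP-SU in the spinal cord, each left out alone. With a library left out, signs turned for 3 uncalled midbrain values on the log2 scale. Lmx1b in MPTP-SU against MPTP-Veh ranged from −0.75 to 0.070 (without MPTP-Veh replicate 4). In MPTP-Veh against Con, Lmx1a ranged from −0.76 to 0.40 (without Con replicate 2, and 0.093 without MPTP-Veh replicate 1) and Lmx1b from −0.27 (without MPTP-Veh replicate 4) to 0.55. With the replicate block, 4 members were called in midbrain MPTP-SU against MPTP-Veh (2020 genes in all), 0 in the other group comparisons, 10 between tissues and 3 in the interaction (En1, En2 and Pax5). For the tissue and interaction counts under these alternatives, the shares over all genes are not given here. They cannot be read as particular to the members. The numbers were not taken to pair the samples, since in no comparison did all 4 same-numbered pairs deviate together with r above 0.1, although 3 of 4 did in midbrain MPTP-SU against MPTP-Veh (−0.07 to 0.26 over the 4) and in midbrain MPTP-SU+T against MPTP-SU (−0.03 to 0.29). In these comparisons 5 and 4 of the 8 libraries correlated best with their own number in the other group. In the spinal cord, Otx2, Pax7, Lmx1a, Foxa1 and Foxa2 had at most 8 counts in a library, so group differences were not detectable at this depth. Leaving out midbrain MPTP-Veh replicate 4 in the comparisons that it enters through the shared spread alone, and in the variation and group means of the members, was added after seeing the data, as was leaving out each library for called network and marker genes.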
